A study of Mus musculus with 6 samples.

Results

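Imprinted genes are genes of which mainly the maternal or mainly the paternal copy is expressed, and this report describes 10 of them in motor neuron progenitors made from mouse embryonic stem cells. The 10 were named by symbol as a list, Meg3, Rian, Mirg, Dlk1, H19, Igf2, Peg3, Mest, Kcnq1ot1 and Snrpn, and each matched 1 Ensembl identifier among the 55400 genes of the deposited table. The table gives total expression only, so nothing here separates the maternal from the paternal copy. C57BL/6 embryonic stem cells, grown beforehand on Mitomycin-C-treated mouse embryonic fibroblasts, were made into embryoid bodies of 500 cells. From day 2 they received 1 µM retinoic acid, which gives a caudal identity, and 0.5 µM SAG, a Sonic hedgehog agonist that gives a ventral identity. The 6 libraries of polyadenylated RNA from day 4 form 2 groups of 3, labelled control and Setd5sh. All are labelled WT in genotype, and the text on doxycycline (1 µg/mL for 36 h) does not differ between the groups. The labels do not spell out the sh of Setd5sh, what the control cells carried, or whether the replicates are independent cultures. The p-values therefore speak only for the variation among these 6 libraries, and that variation may be technical. The comparison is between the groups with these labels; Setd5 encodes a SET domain protein.

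Imprinting is set in the germ line by DNA methylation of control regions that differ between egg and sperm, and it is kept after fertilization by proteins such as ZFP57 and TRIM28. Imprinted genes lie in clusters, in which a long noncoding RNA from 1 parental copy often sits beside protein-coding genes expressed from the other. Many of them act on fetal growth, and several, such as Dlk1, Peg3 and Meg3, are expressed in the developing nervous system. The long-term culture of embryonic stem cells is known to disturb imprinting at some of these clusters, the Dlk1 and Meg3 cluster among them.

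Of the 10 genes, 9 passed the expression minimum of a mean of 1 FPKM (fragments per kilobase of exon, scaled to the library's total count) and 0 passed the adjusted threshold between Setd5sh and control, in a comparison in which 0.0% of the 12199 genes tested passed edgeR's quasi-likelihood test at an adjusted p under 0.05. At an unadjusted p under 0.05 there were 149 genes, or 1.22%, Mest among them. Mest was the 1 gene of the list whose groups did not overlap, with Setd5sh higher. It was also higher in each pair of libraries that share a replicate number. Of all genes tested, 3.07% had Setd5sh wholly above control, and 12.7% were higher in all 3 pairs. Meg3, Rian and Mirg, the maternally expressed noncoding RNAs of chromosome 12, were lowest in Setd5sh replicate 1, and H19 and Snrpn varied least of the list. Kcnq1ot1 had 1 library, control replicate 1, far above the other 5.

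The sequences shown first belong to listed genes named in the paragraph above. Several of the listed transcripts carry microRNA hairpins, which are cut from the host RNA. The mature microRNAs were not measured here, since the libraries hold polyadenylated RNA; reads counted to hairpin genes such as Mir3072, in Mirg, and Mir1188, in Rian, need not come from mature microRNAs. By GENCODE M21 positions, 6 of the 10 genes hold a hairpin of the RefSeq table on their own strand, 21 hairpins in all, of which 18 lie in Meg3, Rian and Mirg. The 40 mature sequences have 39 distinct seeds, bases 2 to 8, and miR-453 and miR-496a-5p, both in Mirg, share 1. Shown from RefSeq (build GRCm38.p6), 5′ to 3′ with the seed in capitals, are the products of the most abundant listed gene (H19), of the gene with non-overlapping groups (Mest) and 1 each from Meg3, Rian and Mirg.
miR-675-5p (H19, chr7:142577112-142577133, minus strand): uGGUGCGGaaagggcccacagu
miR-675-3p (H19, chr7:142577078-142577099, minus strand): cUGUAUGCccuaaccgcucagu
miR-335-5p (Mest, chr6:30741314-30741336, plus strand): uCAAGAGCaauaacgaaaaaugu
miR-335-3p (Mest, chr6:30741354-30741375, plus strand): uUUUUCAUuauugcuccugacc
miR-770-5p (Meg3, chr12:109563710-109563731, plus strand): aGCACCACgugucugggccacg
miR-370-3p (Rian, chr12:109618305-109618326, plus strand): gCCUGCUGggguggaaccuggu
miR-410-3p (Mirg, chr12:109743764-109743784, plus strand): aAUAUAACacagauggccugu
The 7 seeds shown all differ from each other. The miR-675 hairpin lies inside an exon of H19, so that it is part of the spliced H19 RNA counted here, and the hairpin of miR-335 lies in no annotated exon of Mest.

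Promoter windows of 300 bases, from 250 before to 50 after an annotated start, are shown for Mest and Meg3, the listed genes with the highest and the lowest fold change among the 9 tested. Capitals mark TGCCGC or its reverse complement GCGGCA, the hexamer that ZFP57 is known to recognise when it is methylated.
Mest, chr6:30737800-30738099, plus strand, GRCm38.p6: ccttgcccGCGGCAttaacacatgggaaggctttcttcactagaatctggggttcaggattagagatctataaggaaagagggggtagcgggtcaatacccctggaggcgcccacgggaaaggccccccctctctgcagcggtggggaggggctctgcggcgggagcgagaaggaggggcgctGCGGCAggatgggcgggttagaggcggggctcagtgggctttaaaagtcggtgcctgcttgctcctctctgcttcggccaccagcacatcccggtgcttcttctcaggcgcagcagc
Meg3, chr12:109540746-109541045, plus strand, GRCm38.p6: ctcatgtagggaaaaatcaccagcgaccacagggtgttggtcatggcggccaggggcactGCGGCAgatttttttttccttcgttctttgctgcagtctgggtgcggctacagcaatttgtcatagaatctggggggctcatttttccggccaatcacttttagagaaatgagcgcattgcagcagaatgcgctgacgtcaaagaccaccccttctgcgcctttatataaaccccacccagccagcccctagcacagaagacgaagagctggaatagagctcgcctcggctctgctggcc
The Mest window shown holds 2 matches and 17 CpG dinucleotides, and the Meg3 window shown 1 match and 13 CpG. Both genes also have a window without a match at another annotated start, which is not shown. These are chr6:30733256-30733555 for Mest, with 8 CpG, and chr12:109545148-109545447 for Meg3, with 1 CpG. On either strand, 11.6% of the 32851 windows in the RefSeq table hold at least 1 match and 1.53% hold 2 or more, and the median window holds 7 CpG. Of the 18 windows of the 9 listed genes found in that table, 5 hold a match; they belong to Mest (2 windows that overlap almost wholly), Meg3, Igf2 and Snrpn. A match is a string of letters and was not tested as a binding site, and imprint control regions can lie outside these windows.

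**Figure D1:**
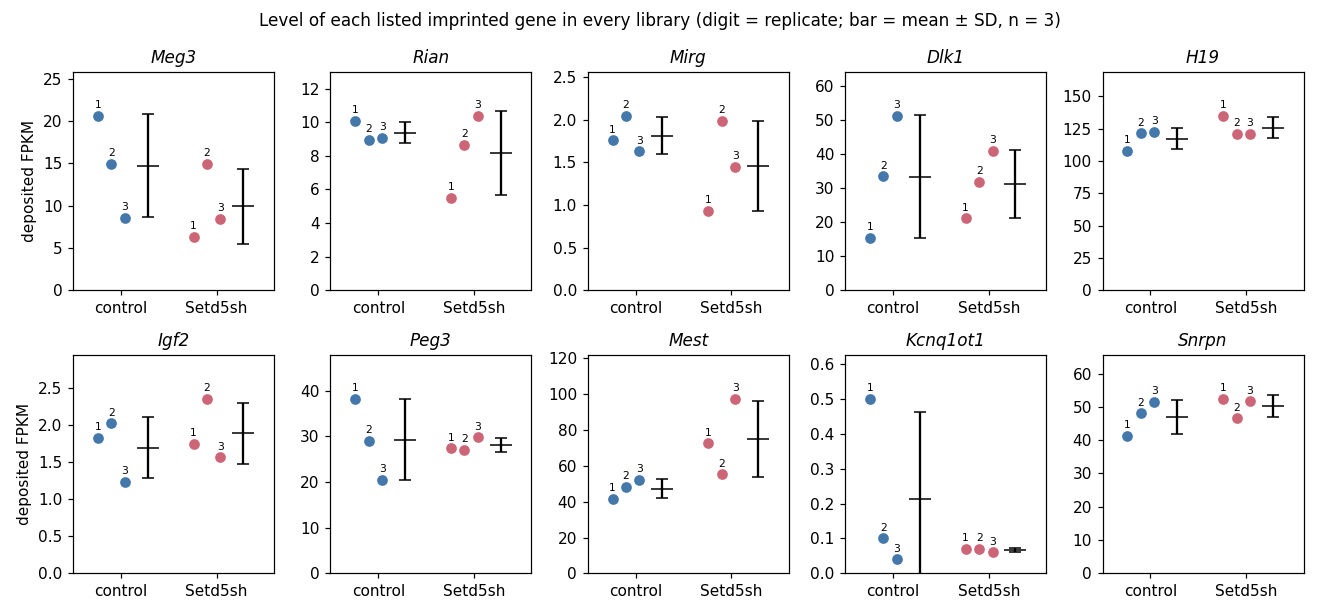
Deposited FPKM (linear axis from 0, a scale of its own in each panel) of the 10 listed imprinted genes, with control libraries in blue and Setd5sh libraries in red, the replicate number beside each point, and the mean and SD over 3 libraries as a bar to the right (the lower arm for Kcnq1ot1 in control runs below 0 and is not drawn in full). The Setd5sh points of Mest, from 55.2 to 97.3, all lie above its control points, and Kcnq1ot1 has a single high point at 0.50 in control replicate 1.

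The level, in FPKM and thus per exonic length, differed widely over the list. In control libraries H19 stood at 117 ± 8.10 (SD, n = 3 each, here and below), Mest at 47.3 ± 5.44, Snrpn at 47.0 ± 5.15, Dlk1 at 33.5 ± 18.0, Peg3 at 29.2 ± 8.88 and Meg3 at 14.7 ± 6.04 FPKM. Rian stood at 9.37 ± 0.626, Mirg at 1.81 ± 0.215, Igf2 at 1.70 ± 0.411 and Kcnq1ot1 at 0.213 ± 0.250 FPKM. In control the values of neighbours in this order overlapped from Mest through Snrpn, Dlk1, Peg3 and Meg3 to Rian, and between Mirg and Igf2. They did not overlap between H19 and Mest, Rian and Mirg, or Igf2 and Kcnq1ot1. In Setd5sh the order was the same except that Igf2, at 1.89 ± 0.414, stood above Mirg, at 1.46 ± 0.530 FPKM. Among the 12199 genes tested, the mean FPKM over all 6 libraries placed H19 at the 97.2nd percentile, Mest at the 93.4th, Snrpn at the 91.3rd, Dlk1 at the 85.8th and Peg3 at the 83.9th. Meg3 was at the 64.4th, Rian at the 54.2nd, Igf2 at the 12.2nd and Mirg at the 10.4th percentile.

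Of the maternally expressed noncoding RNAs, Meg3 (ENSMUSG00000021268; mm10 chromosome 12, plus strand, 109541001 to 109571726), a nuclear RNA that is expressed from the maternal copy opposite Dlk1, was the most variable. Control replicates 1, 2 and 3 had 20.65, 14.97 and 8.58 FPKM, and the Setd5sh replicates 6.34, 14.93 and 8.41 FPKM. The groups overlapped, and the highest and the lowest value both came from libraries numbered 1. On the log2 scale Setd5sh minus control came to -0.60 (SE 0.39, edgeR adjusted p of 0.995). Within pairs of the same replicate number the log2 difference was -1.74, 0.02 and -0.04. Without control replicate 1 the log2 fold change was -0.23, and without both libraries numbered 1, an alternative added after the data were seen, it was 0.0013.

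Rian (ENSMUSG00000097451; chromosome 12, from 109603940 to 109661716, plus strand), a host transcript of C/D box small nucleolar RNAs, and Mirg (ENSMUSG00000097391; chromosome 12, from 109729764 to 109749460, plus strand), a host of many microRNAs, follow Meg3 on the same strand. Rian had 10.09, 8.95 and 9.07 FPKM in control and 5.48, 8.64 and 10.40 in Setd5sh replicates 1, 2 and 3. Mirg had 1.76, 2.05 and 1.63 FPKM in control and 0.93, 1.99 and 1.45 in Setd5sh. In both genes Setd5sh replicate 1 was the lowest of the 6 libraries and the groups overlapped. In log2 fold change Rian stood at -0.21 (SE 0.23) and Mirg at -0.32 (SE 0.28), each at an edgeR adjusted p of 0.995. In pair 1 Rian and Mirg differed by -0.92 and -0.96 on the log2 scale, in pair 2 by -0.03 and -0.01, and in pair 3 by 0.19 and -0.18. Without Setd5sh replicate 1 the log2 fold change of Mirg was -0.09 and that of Rian -0.00056. In a fit with a replicate block, after removal of each library's trends on GC and length, the log2 fold change of Rian was 0.20. The deposited exonic length of Rian is 31981 bases against 18234 in GENCODE M21, so its FPKM would be higher on the latter length.

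The pattern of Meg3 over the 6 libraries was closest, outside its own 500 kb window and by Pearson's r of log2(FPKM + 1), to Gm8113 (r of 0.997), Lmntd2 (0.992) and Mcoln1 (0.992), a lysosomal channel gene. These are the highest of 12199 genes over 6 points and are given as a description. In control replicates 1, 2 and 3 Lmntd2 had 3.14, 2.34 and 1.63 FPKM, and the Setd5sh replicates had 1.16, 2.55 and 1.41 FPKM. Over the 6 libraries Gm8113 ran only from 2.15 to 3.11 FPKM and Mcoln1 from 4.50 to 5.98, against 6.34 to 20.65 for Meg3. Pearson's r with Meg3 was 0.802 for Mirg, 0.561 for Rian and -0.404 for Dlk1.

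Dlk1 (ENSMUSG00000040856; chromosome 12, from 109452823 to 109463336, plus strand) encodes a transmembrane protein of the Notch ligand type and is expressed from the paternal copy of the same cluster. Control replicates 1, 2 and 3 had 15.46, 33.50 and 51.41 FPKM, and the Setd5sh replicates 21.13, 31.81 and 40.95 FPKM. All 3 Setd5sh values lay inside the range of the control values. The log2 fold change was -0.10 (SE 0.41, edgeR adjusted p of 0.995), and its sign turned with the library left out: it was -0.42 when control replicate 1 was omitted and 0.36 when control replicate 3 was. Dlk1 and Meg3 had within-group SDs of 0.682 and 0.635 in log2 CPM, at the 90.8th and 89.1st percentiles of the genes tested. The ratio of Meg3 to Dlk1 in FPKM in the control replicates was 1.34, 0.447 and 0.167. Setd5sh gave ratios of 0.300, 0.469 and 0.205, in the same order of replicates. The 5 libraries other than control replicate 1 had more Dlk1 than Meg3 per length.

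H19 (ENSMUSG00000000031; chromosome 7, from 142575529 to 142578143 on the minus strand), a maternally expressed noncoding RNA, had the highest level of the list and the smallest spread. Control replicates 1, 2 and 3 had 107.87, 121.45 and 122.31 FPKM, and the Setd5sh replicates 135.13, 120.83 and 121.02 FPKM. The groups overlapped, with control replicate 1 lowest and Setd5sh replicate 1 highest. H19 had a log2 fold change of 0.09 (SE 0.13, edgeR adjusted p of 0.995). Its within-group SD in log2 CPM was 0.0926, at the 4.65th percentile of the genes tested.

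Igf2 (ENSMUSG00000048583; chromosome 7, from 142650766 to 142666816, minus strand), the paternally expressed fetal growth factor that shares enhancers with H19, was low. It had 1.83, 2.03 and 1.24 FPKM in control and 1.75, 2.36 and 1.57 in Setd5sh replicates 1, 2 and 3, on counts from 141 to 373 reads per library. The groups overlapped, and the log2 fold change was 0.14 (SE 0.27, edgeR adjusted p of 0.995), turning to -0.04 without control replicate 3. The ratio of H19 to Igf2 in FPKM lay between 51.2 and 98.6 over the 6 libraries, with a median of 68.5. In GENCODE M21, 62.8% of the exonic bases of Igf2 also belong to Gm49394, a gene on the same strand that is listed at 0 in each library. With Gm49394 at 0, the sources used here do not say whether shared reads went to Igf2 alone or to neither gene. The deposited Igf2 level, and with it this ratio, is therefore uncertain. If shared reads went to neither gene, the Igf2 level is too low and the ratio too high, which was not tested.

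Mest (ENSMUSG00000051855; chromosome 6, from 30723547 to 30748465 on the plus strand), a paternally expressed gene of the alpha/beta hydrolase family that is active in mesoderm and in embryonic growth, had the largest positive fold change of the list. Control replicates 1, 2 and 3 had 41.38, 48.32 and 52.10 FPKM, and the Setd5sh replicates 72.55, 55.20 and 97.29 FPKM. Each Setd5sh library was above each control library, and Setd5sh replicate 2 was nearest to the controls. The means were 47.3 ± 5.44 FPKM in control and 75.0 ± 21.2 FPKM in Setd5sh. In edgeR the log2 fold change of Mest was 0.66 (SE 0.22), at an unadjusted p of 0.0171 and an adjusted p of 0.995. An exact two-sided permutation test of 3 against 3 cannot go below p = 0.1, the value that groups without overlap give. Of all genes tested, 375, or 3.07%, had Setd5sh wholly above control, and 261, or 2.14%, wholly below.

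Within pairs, Mest differed by 0.77, 0.22 and 0.89 on the log2 scale, that is, Setd5sh stood at 175%, 114% and 187% of control. Higher in all 3 pairs were 1546, or 12.7%, of the genes tested. The log2 fold change of Mest lay between 0.43, without Setd5sh replicate 3, and 0.87, without Setd5sh replicate 2, and was 0.62 without both libraries numbered 1 (adjusted p from 0.190 to 1.0 over 17 alternatives). Of the exonic bases of Mest, 23.1% overlap those of Copg2, which runs on the opposite strand. Copg2, a coat protein gene that is itself imprinted in some tissues, had 27.2 ± 2.31 FPKM in control and 23.5 ± 0.722 in Setd5sh, with its groups not overlapping and a log2 fold change of -0.22 (SE 0.14). The sources used here do not say whether counting used strand, so reads of the overlap cannot be assigned to either gene. The summed level of 10 fibroblast and mesenchyme markers was 8.92 to 14.9 FPKM in control and 14.9 to 21.5 FPKM in Setd5sh, highest in Setd5sh replicate 3, where Mest was highest too. Acta2 (10.11) and Col1a2 (7.83 FPKM) led the sum in that library, while Col1a1, at 0.61 FPKM, was at its lowest of the 6 there. The summed level of 6 young neuron markers was 38.9 to 44.4 FPKM in control and 53.1 to 69.5 in Setd5sh, without overlap. Like Mest, this sum was lowest within Setd5sh in replicate 2. Only Tubb3 of the 6 did not overlap, at 17.29 to 26.10 FPKM in control and 30.52 to 55.03 in Setd5sh. Mnx1, of the same 6, was lower in Setd5sh in each pair. The summed level of 6 progenitor markers was 216 to 243 FPKM in control and 243 to 301 in Setd5sh. The part of these markers in the Mest difference was not tested. In bulk samples more cells of a type and more RNA per cell cannot be told apart.

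Peg3 (ENSMUSG00000002265; chromosome 7, from 6703892 to 6730431, minus strand), a paternally expressed zinc finger gene, had 38.23, 28.98 and 20.48 FPKM in control and 27.40, 27.10 and 29.76 in Setd5sh replicates 1, 2 and 3. The Setd5sh values lay close together and inside the control range. The log2 fold change was -0.07 (SE 0.23, edgeR adjusted p of 0.995), and it was 0.21 without control replicate 1 and -0.28 without control replicate 3. Pairs 1, 2 and 3 differed by -0.52, -0.07 and 0.53.

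Snrpn (ENSMUSG00000102252; chromosome 7, from 59982495 to 60140219, minus strand), a paternally expressed gene for a spliceosomal protein of neural tissue, had 41.39, 48.02 and 51.53 FPKM in control and 52.43, 46.55 and 51.70 in Setd5sh. The groups overlapped, and the log2 fold change was 0.09 (SE 0.14, edgeR adjusted p of 0.995). Its within-group SD in log2 CPM, 0.123, lay at the 10.4th percentile. Snurf, which shares its transcript, is listed at 0 in each library, and 27.3% of the exonic bases of Snrpn also belong to Gm38393 on the same strand, so the level of Snrpn is uncertain in the same way as that of Igf2.

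Kcnq1ot1 (ENSMUSG00000101609; chromosome 7, from 143203458 to 143296549, minus strand) is a long unspliced noncoding RNA, expressed from the paternal copy, that silences neighbouring genes. It had 0.50, 0.10 and 0.04 FPKM in control and 0.07, 0.07 and 0.06 in Setd5sh, from counts of 1479, 248 and 79 and of 131, 182 and 117 reads over 93092 bases. Control replicate 1 was the single high library and the groups overlapped. It was under the expression minimum. In edgeR without a filter its log2 fold change was -1.57 (SE 0.30, adjusted p of 0.000387), in a fit in which 55 genes, or 0.187% of 29462, passed as lower. Without control replicate 1 that fit gave -0.02 (SE 0.31, adjusted p of 1.0), and with edgeR's own filter on low counts and all 6 libraries -1.66 (SE 0.75, adjusted p of 0.986). The call was thus found only in fits that had no filter and kept control replicate 1.

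**Figure D2:**
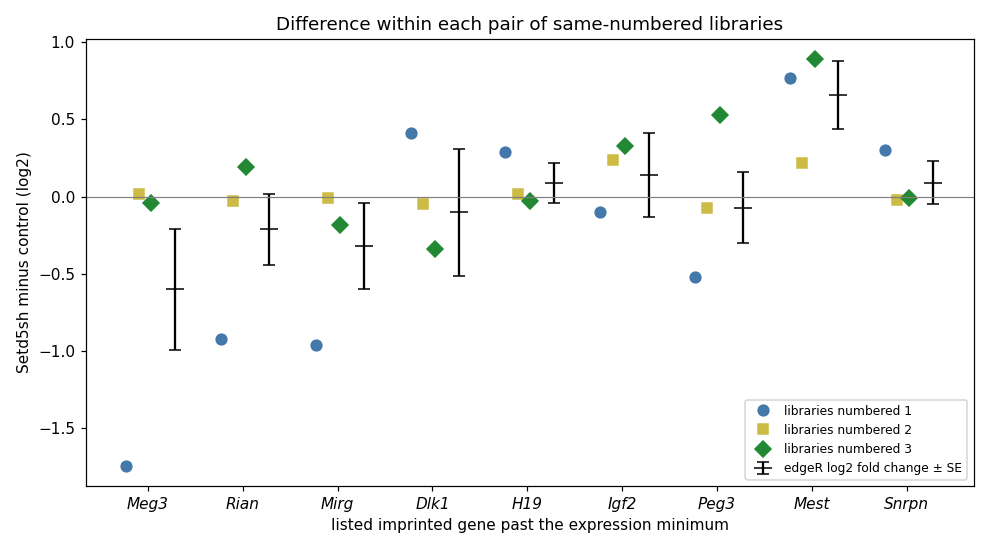
Setd5sh minus control in log2 CPM within each pair of libraries that share a replicate number (circles, squares and diamonds for numbers 1, 2 and 3), and the edgeR log2 fold change with its SE (black), for the 9 listed genes past the expression minimum. Meg3, Rian and Mirg lie at -1.74, -0.92 and -0.96 in pair 1 and within 0.2 of 0 in the other pairs, and Mest is above 0 in all 3.

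Control replicate 1 stood apart over the whole table, and the listed genes have to be read beside that. The 6 libraries had total counts of 19639303 to 32046466 reads. The median correlation of control replicate 1 with the other libraries in log2 CPM was 0.952, against 0.973 to 0.984 for the other 5. Its deviation from their mean had a Spearman correlation with GC content of -0.665 over 12190 genes. For the other 5 this correlation ran from -0.186 in Setd5sh replicate 3 to 0.602 in Setd5sh replicate 2. In control replicate 1 the median deviation (log2) was 0.76 for genes of 18.1 to 45.8% GC, the lowest of 4 equal bins. It was -0.36 for genes of 55.0 to 75.5% GC, the highest bin. In Setd5sh replicate 2 these medians were -0.24 and 0.18. Setd5 itself was 19.2 ± 2.76 FPKM in control and 13.6 ± 0.755 in Setd5sh, without overlap, a log2 fold change of -0.51 (SE 0.16, edgeR adjusted p of 0.995).

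Among the listed genes, Meg3 was 1.11 above the mean of the other 5 libraries in control replicate 1, at a transcript GC content of 51.9%, and Dlk1 1.08 below it (-1.08), at 55.0%. Peg3 was at 0.60 with 47.1% GC, Rian at 0.35 with 40.1% and Mest at -0.53 with 48.4%. H19, Igf2, Mirg and Snrpn lay between -0.20 and 0.25. The median deviation in control replicate 1 was 0.76 for genes of 18.1 to 45.8% GC and 0.13 for 45.8 to 50.5%. It was -0.22 for genes of 50.5 to 55.0% GC and -0.36 for 55.0 to 75.5%. The part of GC content in the deviations of single genes was not tested. With the block and the GC and length trends removed, Meg3 stood at -0.58, Mest at 0.66 and Dlk1 at -0.04 on the log2 scale. Control replicate 1 had the highest FPKM for 22.2% (2 of 9) of the listed genes tested, and for Kcnq1ot1 below the minimum. The share was 40.5% (17 of 42) for the longer list of imprinted genes described next, 52.9% (9 of 17) for genes that act on imprints and 32.0% for all genes tested.

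**Figure D3:**
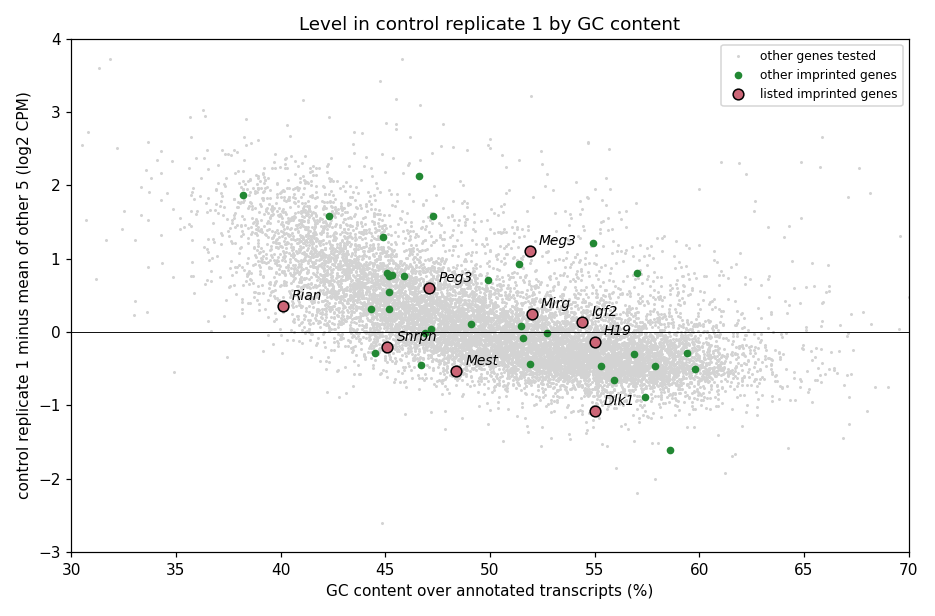
Level in control replicate 1 minus the mean of the other 5 libraries (log2 CPM) against the GC content of annotated transcripts, 1 point per gene tested, with the listed imprinted genes in red and the other imprinted genes in green; 15 of 12190 genes lie outside the axes. Values fall from left to right over all genes, and of the listed genes Meg3, at 1.11, is the highest and Dlk1, at -1.08, the lowest.

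**Figure D4:**
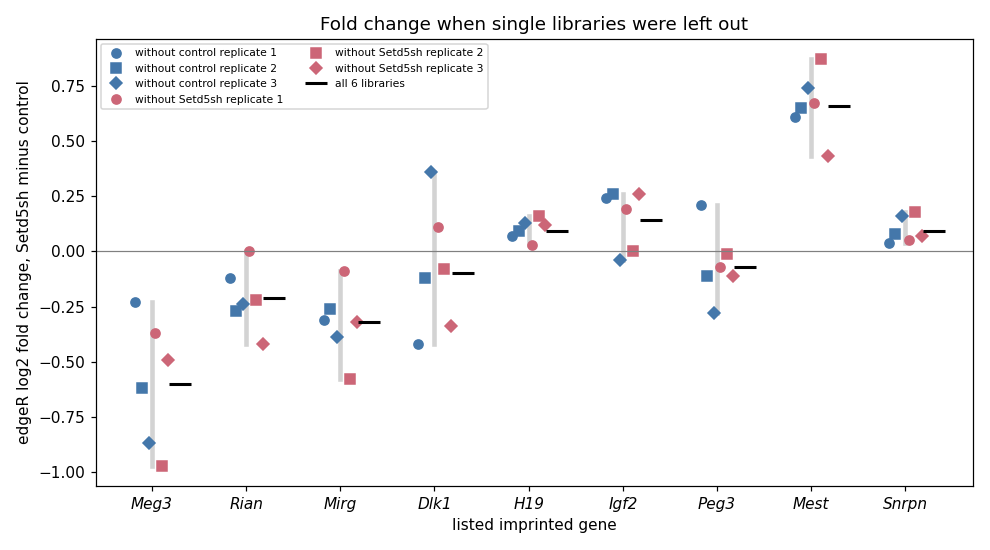
edgeR log2 fold change, Setd5sh minus control, of the 9 listed genes with all 6 libraries (black) and with each library left out (blue for a control library, red for a Setd5sh library, the shape giving the replicate). Meg3, Rian, Mirg, H19, Snrpn and Mest keep their sign in all 6 omissions (Rian at -0.00056 in 1 of them), and Dlk1, Peg3 and Igf2 lie on both sides of 0.

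The other imprinted genes were taken from a list of 63 symbols, the 10 included, with 29 maternally and 34 paternally expressed genes. This division is that of the list, and which copy was active in these cells was not measured. Of these, 62 had a row and 42 passed the expression minimum. None of the 42 passed the adjusted threshold in edgeR, 1 (Mest) had an unadjusted p under 0.05, and 20 had a positive and 22 a negative log2 fold change. The median was -0.03, against -0.04 over all genes tested. It was -0.01 for the 19 maternally and -0.04 for the 23 paternally expressed genes, and turned to 0.063 for the 42 without control replicate 1. Groups did not overlap in 3 of the 42, with Mest and Blcap higher and Copg2 lower in Setd5sh, against 3.07% of all genes tested higher and 2.14% lower.

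The most abundant genes of the longer list were Peg10, a retrotransposon-derived gene, and Grb10, an adaptor protein that restrains growth factor receptor signalling. Peg10 had 192 ± 18.9 FPKM in control and 240 ± 41.0 in Setd5sh, a log2 fold change of 0.31 (SE 0.19). Grb10 had 201 ± 16.8 and 232 ± 29.7 FPKM, a log2 fold change of 0.20 (SE 0.18). Without single libraries Peg10 lay between 0.21 and 0.48 and Grb10 between 0.12 and 0.34, lowest without Setd5sh replicate 3 and control replicate 2 and highest without Setd5sh replicate 2. Higher in Setd5sh in all 3 pairs were 7 of the 42, these and Mest, H13, Ndn, Peg12 and Blcap, against 12.7% of all genes tested. Lower in all 3 were 3 of the 42, Mirg, Copg2 and Slc38a4, against 12.6%. These are descriptions of direction, since none of the 10 passed the adjusted threshold. Nnat, a membrane protein gene of neural tissue, stood at 80.4 ± 14.5 and 82.1 ± 2.19 FPKM.

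After Mest, the smallest unadjusted p among positive fold changes belonged to H13 (0.146), Peg10 (0.152), Ndn (0.255) and Peg12 (0.264). H13, which encodes a signal peptide peptidase, had a log2 fold change of 0.29 (SE 0.18), Ndn, the necdin gene of neurons, 0.26 (SE 0.21), and Peg12 0.63 (SE 0.52). Leaving out single libraries, H13 lay between 0.18 (control replicate 1 omitted) and 0.46 (control replicate 3) and Ndn between 0.16 (control replicate 2) and 0.44 (Setd5sh replicate 2). Peg12 lay between 0.13 (Setd5sh replicate 1) and 1.35 (control replicate 1). Among negative ones they were Slc38a4, an amino acid transporter, at -0.33 (SE 0.17), Sfmbt2, a Polycomb-type protein, at -0.53 (SE 0.28), Zim1 at -0.78 (SE 0.42), the ubiquitin ligase gene Ube3a at -0.88 (SE 0.51) and Copg2 at -0.22. Without control replicate 1, Slc38a4 stood at -0.15, Sfmbt2 at -0.32, Zim1 at -0.36 and Ube3a at 0.06.

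**Figure D5:**
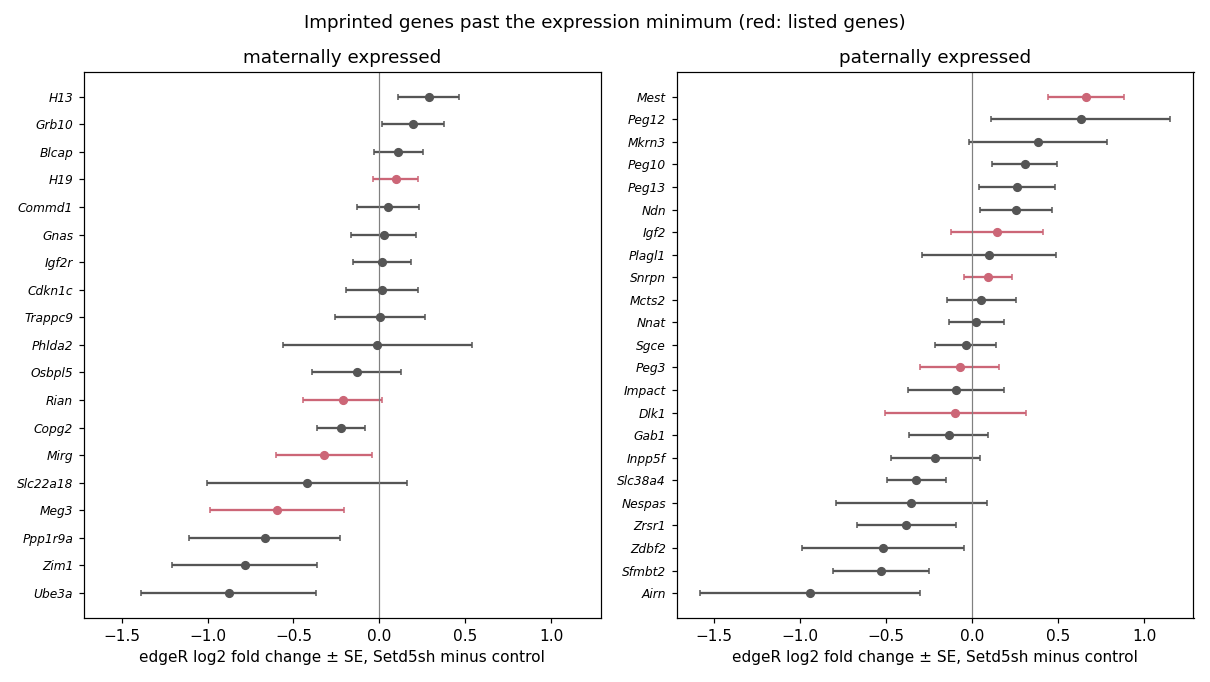
edgeR log2 fold change with its SE, Setd5sh minus control, of the 19 maternally (left) and 23 paternally expressed genes (right) past the expression minimum, in order of the fold change, with the listed genes in red. Both panels spread to either side of 0, and Mest is at the top of the paternal panel.

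A list of 19 genes that act on imprints or on DNA methylation holds both genes that keep methylation and Tet1, Tet2 and Tet3, which act in its removal. Of the 19, 17 passed the expression minimum and 0 the adjusted threshold in edgeR, 0 had an unadjusted p under 0.05, and 7 had a positive and 10 a negative log2 fold change, with a median of -0.09. The 4 with the smallest unadjusted p were Tet2, at -0.77 (SE 0.46), Uhrf1, at 0.27 (SE 0.16), Tet1, at -0.60 (SE 0.37), and Zfp445, at -0.83 (SE 0.52). Tet1 and Tet2 encode enzymes that oxidise methylated cytosine, Uhrf1 a cofactor of maintenance methylation, and Zfp445 a zinc finger protein that binds imprint control regions. Without control replicate 1 the log2 fold changes of Tet2, Tet1 and Zfp445 were 0.01, -0.07 and 0.14.

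Genes that lie near the listed ones but are on neither imprinted list gave no call either. Of 346 genes with a row whose start lies within 500 kb of that of a listed gene, 28 passed the expression minimum, with 15 positive and 13 negative log2 fold changes, a median of 0.01 and 0 past the adjusted threshold in edgeR (1 at an unadjusted p under 0.05). The 4 with the smallest unadjusted p were Gm45889, at 0.67 (SE 0.28), Gm24564, at -1.95 (SE 0.85), the cysteinyl-tRNA synthetase gene Cars, at 0.60 (SE 0.29), and Gm38393, which shares exons with Snrpn, at -1.59 (SE 0.80). Cars had 15.9 ± 2.67 FPKM in control and 24.2 ± 8.35 in Setd5sh, and Gm45889 3.69 ± 0.555 and 5.93 ± 1.92. The control spread was wide for Gm24564, at 4.40 ± 3.76 FPKM against 1.14 ± 0.406 in Setd5sh. The same held for Gm38393, at 4.58 ± 5.49 FPKM in control and 1.57 ± 0.199 in Setd5sh.

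The markers of the labelled cell type were present. Olig2, Nkx6-1 and Sox2 had means of 83.7, 59.3 and 74.3 FPKM over the 6 libraries, and 6 of 6 progenitor markers averaged at least 1 FPKM. Of the young neuron markers, Tubb3 had 18.98, 17.29 and 26.10 FPKM in control and 53.54, 30.52 and 55.03 in Setd5sh. Mnx1, a motor neuron gene, had 10.65, 22.78 and 11.34 FPKM in control and 7.16, 17.11 and 5.05 in Setd5sh, lower in each pair. Embryonic fibroblasts, on which the stem cells had been grown, and mesoderm are known to express H19, Igf2, Dlk1 and Mest. Of 10 fibroblast and mesenchyme markers 4 averaged at least 1 FPKM (Col1a1 at 1.58, Col1a2 at 5.28, Twist1 at 1.92 and Acta2 at 5.38 FPKM). Col3a1 averaged 0.535 FPKM, and Postn, Dcn, Lum, Thy1 and Prrx1 averaged 0.03, 0.12, 0.015, 0.0983 and 0.0133 FPKM. The part of such cells in the levels of the listed genes was not tested. Of 5 mesoderm markers only Meox1, at 5.19 FPKM, averaged at least 1. Pluripotency markers summed to 82.8 and 62.0 FPKM in the control and Setd5sh libraries numbered 2 and to 9.09 to 27.7 in the other 4. Of 6 endoderm markers 3 averaged at least 1 FPKM, with the sum led by Foxa2, a gene of the floor plate as well, and of 5 endothelial or blood markers 0 did.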

How the data were processed

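Polyadenylated RNA was sequenced in 6 libraries, 3 control and 3 Setd5sh, grouped by their titles. The authors deposited raw read counts and FPKM per gene for 55400 Ensembl identifiers, with an exonic length. Per the submitters' processing notes, the build was mm10 and the tools included HTSeq, HISAT2, DESeq2 and SAMtools, without roles or versions. The sources used here give neither annotation release nor strand setting. Recomputing the deposited FPKM from count, length and column total gave the same values to within 0.005. Symbols and positions came from GENCODE M21 on the same build (55140 identifiers, or 99.5%, found). GC content was averaged over its transcripts, since no genome was used here.

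edgeR's quasi-likelihood test was run on the deposited counts of the 12199 genes with a mean FPKM of at least 1, with TMM scaling and Benjamini-Hochberg adjustment over all of them, at 0.05, two-sided. Differences within pairs are in log2 CPM with TMM scaling. Lists were given by counts and medians only. The genes, lists and alternatives were chosen with earlier results of these data known. Named besides the 10 are the 5 most abundant imprinted genes and the 5 with the smallest p in each direction. Also named are 4 each of the imprint-related and neighbouring genes, Setd5, 3 genes most like Meg3, and fixed markers. Blcap was added for its groups, and the values of the 3 genes most like Meg3 after they were seen.

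Same-numbered libraries had correlated deviations from the group means (0.183, 0.663 and 0.139), each over 0.1. By that rule differences are also given within pairs, a pairing which no label states. The hint of pairing is weak for 2 of the pairs, since control replicate 1 with Setd5sh replicate 3 gave 0.166, also over 0.1. The deviations are from means of 3 libraries and cancel out within a group, so these correlations depend on each other. The reported edgeR fit had no replicate block, which was used in alternatives only. On simulated counts for these 12199 genes with 200 changed, edgeR called 92% of genes changed 4-fold, 28% of those changed 2-fold and 11 unchanged genes. The simulated libraries were drawn independently, with no GC trend and no pairing, so these shares need not hold for the real libraries. Alternatives were other scalings, filters and tools (DESeq2, and limma on log2 FPKM with a pseudocount of 1 or 0.1), the replicate block, the block with loess trends on GC content and length removed, and each library left out. Versions were edgeR 4.0.16, DESeq2 1.42.0 and limma 3.58.1 in R 4.3.3, and matplotlib 3.10.9.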

Additional observations from a re-analysis of the deposited data

How the results depend on the processing

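Mest and Mirg kept their sign in all 17 alternatives each, and no listed gene past the expression minimum was called in any. The count of called genes was 0 as reported, 73 without a filter (18 higher, 55 lower, with 1 listed gene, Kcnq1ot1) and 2 with the replicate block in DESeq2, added after the data were seen; it was 0 in each of the 6 fits without 1 library. With the replicate block in edgeR the count was 0, no listed gene changed its call, and Dlk1 turned to 0.0061 (0.02 with the block in DESeq2). Dlk1 was 0.01 and 0.02 in limma with a pseudocount of 1 and 0.1, and from -0.42 to 0.36 without single libraries, with 0.11 for the omission of Setd5sh replicate 1. Peg3 was 0.01 without a filter, 0.10 with the block and GC and length offsets, from -0.28 to 0.21 without single libraries and 0.22 without both libraries numbered 1. Rian was 0.20 with the block and offsets and 0.09 without both libraries numbered 1. Without both libraries numbered 1, Meg3, H19 and Snrpn were 0.0013, -0.00018 and -0.0081. Igf2 ran from -0.04 to 0.26 without single libraries, with -0.0036 for the omission of Setd5sh replicate 2. The median of the 42 imprinted genes, -0.026, ran from -0.080 to 0.063 without single libraries and was 0.075 without both libraries numbered 1. Kcnq1ot1 in the fit without a filter ran from -2.06 to -0.02 without single libraries. Apart from the libraries left out, the cause of these turns was not tested. The lowest counts behind Igf2, Mirg and Kcnq1ot1 were 141, 140 and 79 reads; the part of depth in their errors was not tested.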
